A study of Mus musculus with 2 samples.

Results

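The 34 genes of voltage-gated sodium, calcium and potassium channels and of an HCN channel were followed through the cell classes of the embryonic mouse dorsal telencephalon. The genes were chosen by symbol, as 34 of the 32285 genes in the count matrices, and all 34 were present. The libraries came from 2 wild-type (WT) mouse samples at E14.5, taken as control animals of the EomesMllt3 (*Eomes*-Cre) line. They are numbered 1 and 3 in the labels, which name no treatment, and the study's methods give C57BL/6J for the strain. The dorsal telencephalon was dissociated with papain and profiled by droplet single-cell RNA sequencing of transcript 3' ends (10x Genomics), in which each unique molecular identifier (UMI) counts 1 captured transcript. The labels name the tissue as brain hemispheres. Whether a library held cells of 1 embryo or of several was not given in the sources used here, so p-values measure only the spread between these 2 libraries.

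Cells were grouped by clusters made without any channel gene, named from marker genes, and called "-like" for this reason. After filtering, 12003 cells remained, 5149 of replicate 1 and 6854 of replicate 3, with a median of 9802 and 9754 UMIs per barcode before the filter. The compared classes were radial glial cells (RGC-like, 678 and 1557 cells in replicates 1 and 3), intermediate progenitor cells (IPC-like, 419 and 837), projection neurons (2872 and 3455), interneurons of the medial ganglionic eminence (MGE interneuron-like, 334 and 218) and Cajal-Retzius-like cells (109 and 70). Among projection neuron-like cells, newborn (757 and 1348), deep-layer (785 and 980) and callosal (447 and 228) subtypes were named. A further 1782 (883 and 899) got no subtype. Callosal markers did not set the newborn and callosal subtypes apart, with 7, 6 and 5 of 7 on in the newborn clusters and 7 of 7 in the callosal one. Newborn markers numbered 7, 6 and 6 of 7 in the newborn clusters, against 3 of 7 in the callosal one. The Cajal-Retzius-like cluster went partly against its name in replicate 1, where 42 of 109 cells (38.5%) held a UMI of the marker *Trp73*, against 66 of 70 (94.3%) in replicate 3. It held *Reln* in 76.1 and 97.1% and the projection neuron marker *Bcl11b* in 65.1 and 40%. The part of these cells in its results was not tested, and where it matters values are given for all its cells and for those with a *Trp73* UMI, an alternative chosen after seeing the data. MGE interneuron-like cells held fewer UMIs, with medians of 4545 and 4038 against 11086 and 10621 in projection neuron-like cells. The libraries shared 23 cell barcodes.

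Voltage-gated channels open when the membrane potential changes. Sodium channel (Nav) alpha subunits form the pore that carries the rising phase of the action potential, and beta subunits are small partners that adjust gating and adhesion. Calcium channels (Cav) consist of a pore-forming alpha1 subunit with an extracellular alpha2delta and a cytoplasmic beta subunit, both of which help the pore reach the membrane. Potassium channels (Kv) repolarise the membrane, and HCN channels open on hyperpolarisation. In the embryonic cortex many of these genes come on as progenitors leave the cycle and become neurons, long before mature firing.

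Levels are UMIs summed per class and replicate and scaled to a total of 1000000 (CPM), always in the order replicate 1 and replicate 3. They compare classes for 1 gene. Whether different genes were captured equally well was not measured, so subunit shares are shares of counted UMIs and not of channels. Fold changes are log2 of the first class over the second, with p from the quasi-likelihood test of edgeR, adjusted after Benjamini and Hochberg for all genes tested. A gene was called at an adjusted p under 0.05. A range after a fold change gives its lowest and highest value over the alternative settings and stands only where one of them moved it by more than 1.5-fold. Where a call was lost under an alternative, the number of alternatives that kept it follows. Where a fit with the replicate number as a block gained a call, its fold change and adjusted p are added. The floor of these levels was read in a class that should hold none of these transcripts. In red blood cell-like cells, all 34 genes together gave 120 UMIs, and the highest mean level was 25 CPM, for *Cacna2d1*.

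Most of the channel genes were higher in neurons than in progenitors. Their summed level was 1616 and 1435 CPM for RGC-like, 2889 and 3012 for IPC-like and 6221 and 5919 for projection neuron-like cells. Between projection neuron-like and RGC-like cells, 30 of 34 genes were higher and 1 was lower, where 30.5% of all genes tested were higher and 27.4% lower, and their median fold change was 2.76 against 0.054 over all genes. *Scn3a*, *Kcnq3*, *Cacna1e* and *Cacna1b* had the largest fold changes, and *Cacnb2* was the gene that fell. *Kcnd2*, *Kcnh5* and *Hcn2* did not pass the test. By mean level over the 5 classes, 15 genes were highest in Cajal-Retzius-like, 10 in MGE interneuron-like and 7 in projection neuron-like cells. With *Trp73* cells alone the numbers were 13, 11 and 8, since *Scn2a* was then highest in projection neuron-like and *Kcnd2* in MGE interneuron-like cells. The same count over all genes was not made and the Cajal-Retzius-like class is the smallest, so these numbers only describe levels. Of the 31 calls, 27 held under every alternative run. The lowest fold change of the 30 higher genes lay under the setting that kept predicted doublets for 23 of them. An RGC-like cluster of 305 cells there had a median of 23197 UMIs per cell and all markers of RGC-like and projection neuron-like cells on. The part of this cluster in the lower fold changes was not tested.

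Part of this rise was already present in IPC-like cells, named for the progenitors between radial glia and neurons. Their cluster led by *Kif26b* (779 cells) also had all newborn projection neuron markers on. A further cluster of 308 cells (129 and 179) had all IPC markers on and was led by *Rrm2*, with *Top2a* and *Mki67* among its leading genes. It stayed unnamed and entered no comparison. In IPC-like cells 12 genes were higher and 5 lower than in RGC-like cells (15.9% and 19% of all genes, median 0.52 against -0.014). *Scn3a*, *Cacna2d1*, *Cacna2d2*, *Kcnb2*, *Kcnc1* and *Kcnc2* were higher and *Cacnb2* lower under every alternative, and the other 10 calls were lost or turned under at least 1. From IPC-like to projection neuron-like cells, 24 genes were higher and 1 lower (21.9% and 18.1% of all genes, median 1.95 against 0.028), with 20 of the 25 calls held under every alternative. *Cacna2d1* and *Kcnb2* stood near their projection neuron level in IPC-like cells, whereas *Scn2a*, *Scn3b*, *Cacna1e* and *Kcnq3* had stayed near their RGC level.

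**Figure D1:**
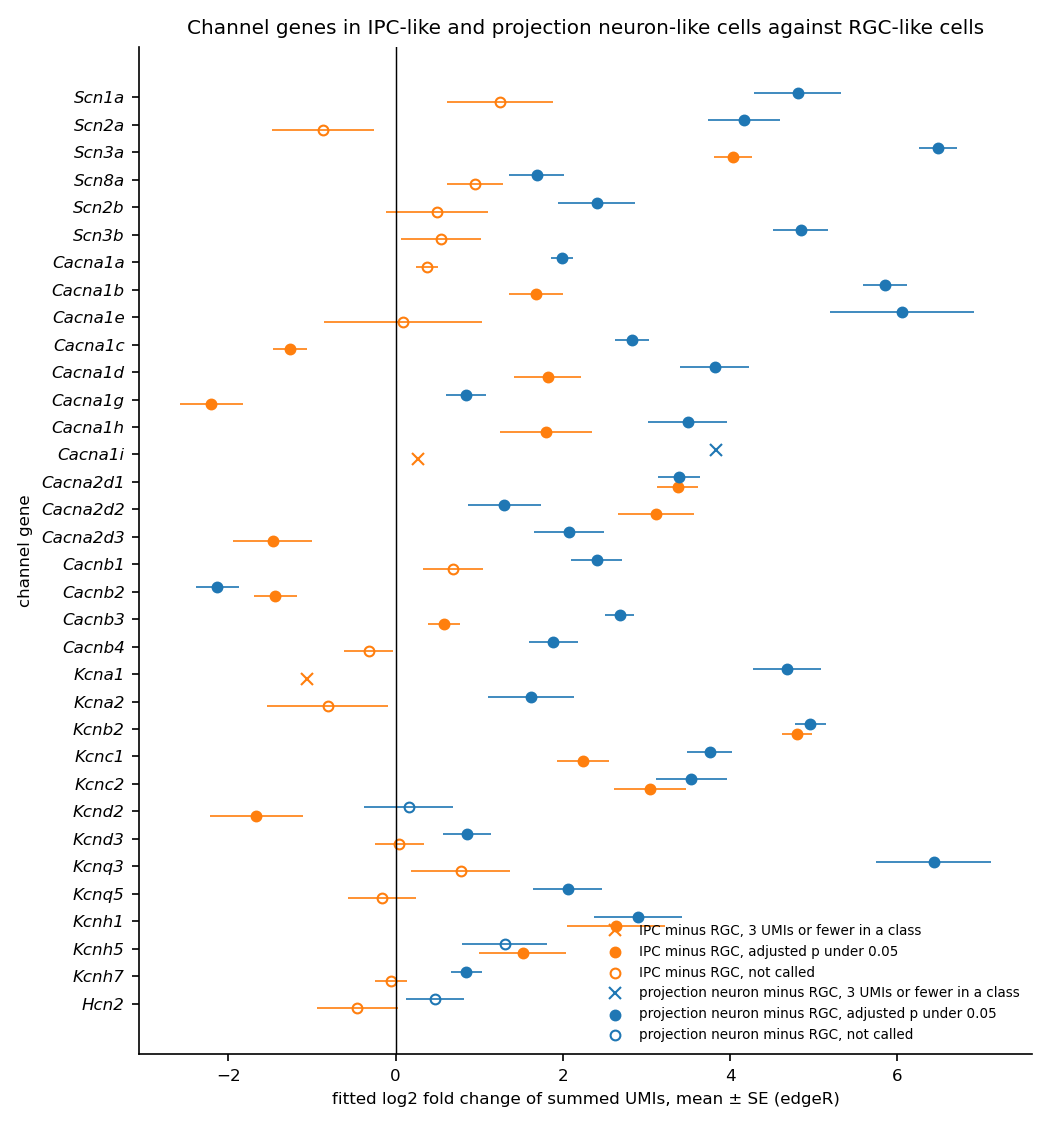
Fitted log2 fold change (mean ± SE, n = 2 replicates per class) of the 34 genes in IPC-like (orange) and projection neuron-like (blue) cells against RGC-like cells, with filled points for calls at an adjusted p under 0.05 and crosses where a class held 3 UMIs or fewer. Blue points lie right of 0 for every gene but *Cacnb2*, and orange points lie close to the blue ones for *Cacna2d1* and *Kcnb2* but near 0 for *Cacna1e*.

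Interneurons and Cajal-Retzius-like cells differed from projection neurons in both directions. MGE interneuron-like cells had 12 of the 34 genes higher and 10 lower (11.1% and 18.1% of all genes, median 0.22 against -0.094). *Kcnc2*, *Cacnb4*, *Cacna2d2* and *Cacna2d3* were among the higher genes, and *Cacna2d1*, *Kcnq3*, *Kcnq5* and *Kcnh5* among the lower ones, all under every alternative. Cajal-Retzius-like cells had 9 higher and 3 lower (10.1% and 10.4% of all genes, median 0.19 against -0.049), and with the *Trp73* cells alone 11 higher and 10 lower (11.7% and 14.8% of all genes, median -0.28 against -0.10). *Cacna2d2* had the largest rise with all Cajal-Retzius-like cells and with the *Trp73* cells alone. These comparisons share the projection neuron-like sums with those against progenitors.

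The scaling of libraries moved the balance of all genes in these comparisons. Without TMM factors, the median gene moved by -0.19 for projection neuron-like against RGC-like cells, -0.12 against IPC-like cells, 0.14 for MGE interneuron-like and 0.30 for Cajal-Retzius-like against projection neuron-like cells, and with DESeq2 by -0.11, -0.053, 0.10 and 0.10. The share of all calls that were higher changed in the same order from 52.7 to 42.5%, from 54.7 to 44.5%, from 38.1 to 51.9% (50.4% with DESeq2) and from 49.4 to 78% (61.6% with DESeq2). No called channel gene changed direction under either scaling.

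Within the projection neurons, deep-layer cells differed from newborn cells in 20 higher and 8 lower genes (23.8% and 21.1% of all genes, median 1.19 against 0.0036). Callosal cells differed from newborn cells in 16 higher and 6 lower (13.1% and 10.7%, median 0.56 against 0.011), and both comparisons share the newborn cells. Calls held under every alternative for 18 of 28 genes in deep-layer cells, and in callosal cells for 6 of 22, namely *Scn2a*, *Scn3b*, *Cacna1b*, *Cacna1d*, *Cacna1h* and *Kcnc1*. The other 16 callosal calls were lost or reversed under at least 1 alternative.

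**Figure D2:**
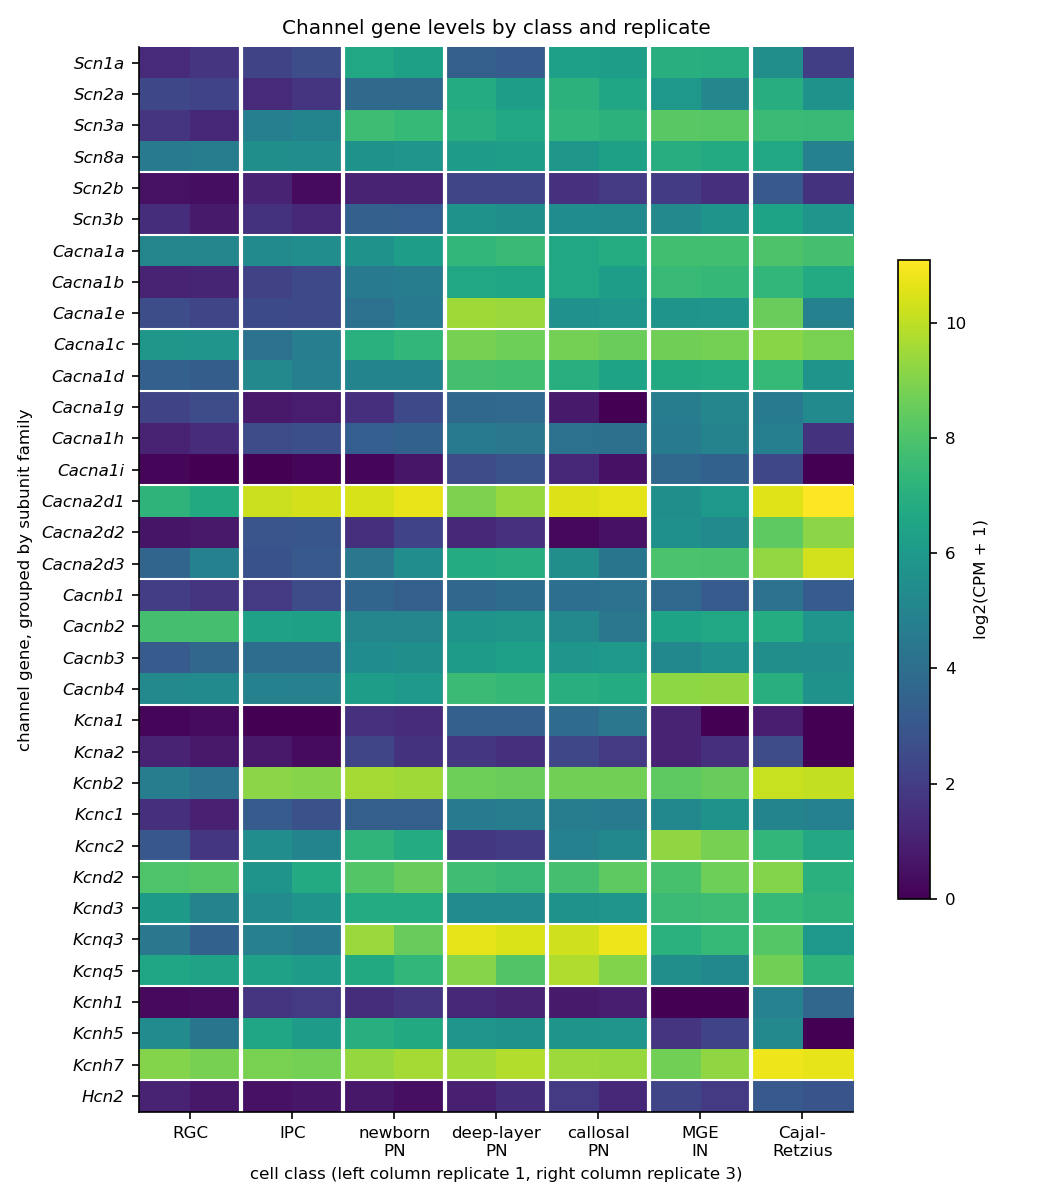
Level of the 34 genes as log2(CPM + 1) per class, with replicate 1 in the left and replicate 3 in the right column of each class and white lines between subunit families. Most rows are darkest in the RGC-like and IPC-like columns at the left, and *Cacna2d1* is bright in every class but RGC-like and MGE interneuron-like cells.

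The Nav alpha genes *Scn1a*, *Scn2a* and *Scn3a*, whose proteins form the pores of fast sodium channels, lie on the same stretch of chromosome 2, with *Scn3a* at chr2:65457118-65567591, *Scn2a* at chr2:65620764-65767447 and *Scn1a* at chr2:66270781-66440837 (mm10, GRCm38.p6). *Scn3a*, the alpha subunit known for its embryonic expression, was close to 0 in RGC-like cells (2.13 and 1.40 CPM). It reached 26.4 and 31.4 CPM in the IPC-like class, 162 and 129.8 in the projection neuron-like class and 300.4 and 292 in the MGE interneuron-like class. These 4 classes did not overlap. From RGC-like to IPC-like cells the fold change was 4.04 ± 0.22 in log2 (SE, edgeR adjusted p = 2.71e-06, range 1.18 to 4.74). From there to projection neuron-like cells it was 2.45 ± 0.18 in log2 (SE, edgeR adjusted p = 1.57e-05, range 1.16 to 2.57). MGE interneuron-like cells exceeded projection neuron-like cells by 0.88 ± 0.17 in log2 (SE, edgeR adjusted p = 0.0051). Callosal against newborn cells gave -0.28 ± 0.16 in log2 (SE, edgeR adjusted p = 0.249, with a replicate block -0.29 and 0.0215). In Cajal-Retzius-like cells its level was 189 and 183 CPM, and a difference from projection neuron-like cells was not called (log2 fold change 0.048 ± 0.17 SE, edgeR adjusted p = 0.878).

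*Scn2a*, an alpha subunit of the early axon initial segment, was low in both progenitors, at 4.27 and 3.64 CPM in RGC-like and 1.59 and 2.20 in IPC-like cells. Projection neuron-like cells held 80.3 and 48 CPM (log2 fold change 4.17 ± 0.43 SE against RGC-like cells, edgeR adjusted p = 3.35e-05, range 2.78 to 4.26). It differed between the projection neuron subtypes. Newborn cells held 13.3 and 13.4 CPM, deep-layer cells 111 and 72.5 and callosal cells 138 and 93.6. Deep-layer and callosal cells thus lay above the newborn cells in each replicate. Against newborn cells, deep-layer cells gave 2.82 ± 0.26 in log2 (SE, edgeR adjusted p = 5.15e-05, range 1.52 to 2.88). Callosal cells gave 3.16 ± 0.27 in log2 (SE, edgeR adjusted p = 9.75e-05, range 1.65 to 3.15). *Scn1a*, the alpha subunit known from fast-spiking interneurons later in life, went another way. It was at 95.2 and 76.8 CPM in newborn cells, 76.5 and 70.5 in callosal cells and 9.37 and 8.44 in deep-layer cells. Deep-layer cells lay below newborn cells, at -3.18 ± 0.15 in log2 (SE, edgeR adjusted p = 1.58e-06, range -3.72 to -1.99). Among the compared classes its level was highest in MGE interneuron-like cells, at 122 and 121 CPM. Single projection neuron-like clusters exceeded this level. Over the 9 clusters its mean ran from 5.75 CPM to 147.7 CPM, the latter in a cluster without a subtype led by *Tafa1*. A newborn cluster led by *Ndst3* held a mean of 129.5 CPM. Clusters of the newborn and deep-layer subtypes overlapped, with 47 CPM in a deep-layer cluster led by *Ctnna3* and 21.4 CPM in a newborn cluster led by *Pcp4*. The difference of MGE interneuron-like from projection neuron-like cells was called with the block alone (log2 fold change 1.08 ± 0.42 SE, edgeR adjusted p = 0.0835, with a replicate block 1.08 and 0.0368). In Cajal-Retzius-like cells the replicates stood far apart, at 43 and 3.18 CPM, and among *Trp73* cells at 3.01 and 3.23 CPM, where the fold change was -4.27 ± 0.35 in log2 (SE, edgeR adjusted p = 1.21e-05).

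*Scn8a*, the alpha subunit of the mature node and initial segment, held the largest share of the alpha gene UMIs in progenitors. RGC-like cells held 22.6 and 24.2 CPM of it, which made up 74.1% (95% interval 68.8 to 78.9%) and 76.9% (73.5 to 80.1%) of the UMIs of the 4 alpha genes there. In IPC-like cells its share was 58.7 and 52%, beside 34.2 and 38.9% for *Scn3a*. In projection neuron-like cells *Scn3a* held the largest share, 44.4% (95% interval 43.5 to 45.3%) and 44.5% (43.6 to 45.5%). The next share was that of *Scn2a* in replicate 1 and of *Scn8a* in replicate 3, with 21.97 and 16.4% for *Scn2a* and 18.1 and 23% for *Scn8a*. The *Scn3a* share was 49.9 and 52.4% in MGE interneuron-like and 55.6 and 54% in newborn projection neuron-like cells. *Scn8a* itself rose to 66.1 and 67 CPM in projection neuron-like cells (log2 fold change 1.69 ± 0.33 SE against RGC-like cells, edgeR adjusted p = 0.00177). IPC-like against RGC-like cells gave 0.95 ± 0.34 in log2 (SE, edgeR adjusted p = 0.0551, with a replicate block 0.94 and 0.0294), and callosal against newborn cells 0.37 ± 0.13 in log2 (SE, edgeR adjusted p = 0.0763, with a replicate block 0.37 and 0.0305). These shares were read per replicate with 95% Wilson intervals, which cover counting error only, and carry no test.

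The RefSeq promoter windows of *Scn1a* (chr2:66440788-66441087 on the minus strand) and of the first listed start of *Scn2a* (chr2:65620519-65620818 on the plus strand) are shown because these neighbouring genes changed in opposite directions from newborn to deep-layer cells. Each runs from 250 bases before to 50 bases after the start of transcription, and capitals mark CG dinucleotides, counted on this strand and by symmetry the same on the other.
Scn1a: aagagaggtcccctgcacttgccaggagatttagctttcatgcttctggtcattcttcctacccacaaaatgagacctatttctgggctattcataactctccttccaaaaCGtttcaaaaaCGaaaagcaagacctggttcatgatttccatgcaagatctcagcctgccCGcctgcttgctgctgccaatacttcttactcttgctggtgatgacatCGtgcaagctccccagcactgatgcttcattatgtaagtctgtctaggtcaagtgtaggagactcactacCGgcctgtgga
Scn2a: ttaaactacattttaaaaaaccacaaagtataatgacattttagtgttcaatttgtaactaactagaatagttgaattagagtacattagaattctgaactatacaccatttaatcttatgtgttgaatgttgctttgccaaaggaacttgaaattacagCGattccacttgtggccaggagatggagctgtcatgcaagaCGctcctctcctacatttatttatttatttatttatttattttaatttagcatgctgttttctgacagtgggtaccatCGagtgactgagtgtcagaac
They hold 5 and 3 CG, and 62% and 76.7% of all 32851 promoter windows hold at least as many. The second listed *Scn2a* start holds 9. No data here measure methylation, and 26 of the 34 genes had a window in this table.

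The Nav beta gene *Scn3b* was, like *Scn2a*, higher in the deep-layer and callosal subtypes than in newborn cells. Its level was 1.71 and 0.749 CPM in RGC-like, 2.05 and 1.34 in IPC-like, 9.56 and 9.07 in newborn, 50.1 and 44.7 in deep-layer and 41 and 39 in callosal cells. Projection neuron-like against RGC-like cells gave 4.85 ± 0.33 in log2 (SE, edgeR adjusted p = 2.38e-06, range 2.94 to 4.91). Deep-layer cells lay above newborn cells by 2.38 ± 0.12 in log2 (SE, edgeR adjusted p = 2.59e-06, range 1.17 to 2.50). Callosal cells did so by 2.12 ± 0.13 in log2 (SE, edgeR adjusted p = 2.71e-05, range 0.87 to 2.15). In Cajal-Retzius-like cells it stood at 86 and 56.3 CPM (log2 fold change 0.86 ± 0.27 SE, edgeR adjusted p = 0.052, with a replicate block 0.85 and 0.0263). *Scn2b* was sparse, with 4 and 7 UMIs in RGC-like and 84 and 90 UMIs in projection neuron-like cells, or 2.52 and 2.39 CPM in the latter. The fold change between them was 2.41 ± 0.46 in log2 (SE, edgeR adjusted p = 0.00162, range 1.71 to 2.77).

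**Figure D3:**
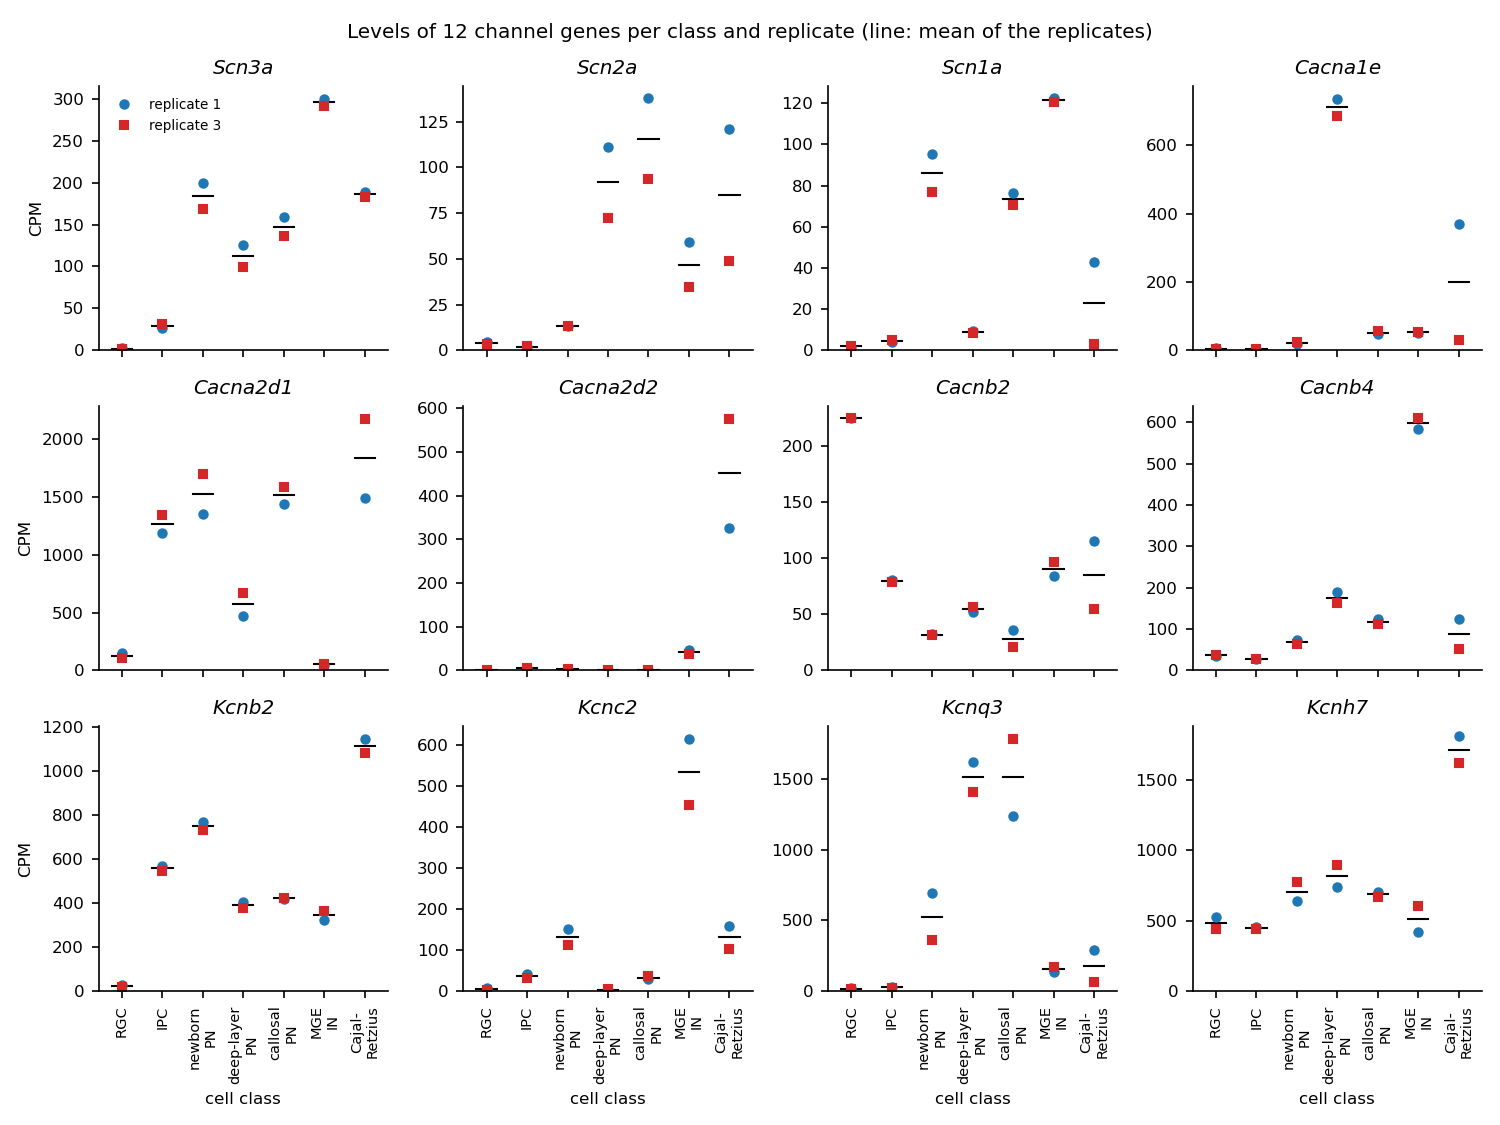
Level in CPM of 12 genes per class, 1 panel a gene, with circles for replicate 1, squares for replicate 3 and a line at their mean. *Cacna1e* peaks in deep-layer cells, *Cacna2d2* in Cajal-Retzius-like cells, *Cacnb4* and *Kcnc2* in MGE interneuron-like cells and *Cacnb2* in RGC-like cells, while *Kcnq3* is high in deep-layer and callosal cells.

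Among the pore subunits of presynaptic and dendritic calcium channels, *Cacna1a* (P/Q-type) was already present in RGC-like cells at 31.9 and 32.7 CPM. It reached 104 and 122 in projection neuron-like, 214 and 213 in MGE interneuron-like and 251 and 227 in Cajal-Retzius-like cells. Projection neuron-like cells exceeded RGC-like cells by 1.99 ± 0.13 in log2 (SE, edgeR adjusted p = 2.14e-06). MGE interneuron-like cells stood above projection neuron-like cells by 0.77 ± 0.13 in log2 (SE, edgeR adjusted p = 0.00276, kept under 10 of 11 alternatives). Cajal-Retzius-like cells did so by 0.78 ± 0.13 in log2 (SE, edgeR adjusted p = 0.00336). The step from RGC-like to IPC-like cells was 0.37 ± 0.13 in log2 (SE, edgeR adjusted p = 0.0558, with a replicate block 0.38 and 0.0418). *Cacna1b* (N-type) was almost absent from RGC-like cells, at 1.07 and 1.25 CPM. It measured 3.42 and 4.40 CPM in IPC-like and 76.8 and 61.1 in projection neuron-like cells (log2 fold change 5.85 ± 0.26 SE against RGC-like cells, edgeR adjusted p = 2.53e-07, range 2.95 to 5.95). MGE interneuron-like cells held 181 and 167 CPM, above projection neuron-like cells by 1.19 ± 0.20 in log2 (SE, edgeR adjusted p = 0.00245).

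*Cacna1e* (R-type) was highest in deep-layer cells. Deep-layer cells held 737 and 684 CPM, against 17.3 and 23.6 in newborn and 47.6 and 55 in callosal cells. Deep-layer against newborn cells gave 5.15 ± 0.17 in log2 (SE, edgeR adjusted p = 4.02e-07, range 2.77 to 5.32). Over the 9 projection neuron-like clusters its mean ran from 7.13 CPM, in a newborn cluster led by *Cdh8*, to 894 CPM, in a deep-layer cluster led by *Hs3st4*. The callosal difference, 1.32 ± 0.16 in log2 (SE, edgeR adjusted p = 6.58e-04, range -0.85 to 2.85, kept under 8 of 11 alternatives), took the opposite sign under the stricter cell filter and at Leiden resolution 1.5. In Cajal-Retzius-like cells the replicates gave 369.7 and 28.7 CPM, and with *Trp73* cells alone 82.7 and 26.9 CPM, where the fold change against projection neuron-like cells was -2.69 ± 0.30 in log2 (SE, edgeR adjusted p = 9.88e-05). MGE interneuron-like cells were also lower (log2 fold change -2.49 ± 0.77 SE, edgeR adjusted p = 0.0374).

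The L-type pore genes, whose channels couple calcium entry to transcription, both rose in neurons. *Cacna1c* was at 57.3 and 53.3 CPM in RGC-like, 17.3 and 25.9 in IPC-like and 369 and 323 in projection neuron-like cells. The last differed from RGC-like cells by 2.83 ± 0.20 in log2 (SE, edgeR adjusted p = 3.23e-06, range 2.10 to 2.94). MGE interneuron-like cells held 406 and 439.9 CPM, and no difference was called, at 0.14 ± 0.19 in log2 (SE, edgeR adjusted p = 0.605). In IPC-like against RGC-like cells the fold change was -1.27 ± 0.20 in log2 (SE, edgeR adjusted p = 0.00124, range -2.03 to 0.52, kept under 7 of 10 alternatives). *Cacna1d* went from 9.49 and 8.78 CPM in RGC-like cells to 31.3 and 30.9 in newborn, 121 and 84.7 in callosal and 225 and 209 in deep-layer cells. Projection neuron-like cells exceeded RGC-like cells by 3.81 ± 0.41 in log2 (SE, edgeR adjusted p = 4.22e-05, range 2.43 to 3.86). The 3 subtypes did not overlap. Deep-layer cells differed from newborn cells by 2.86 ± 0.17 in log2 (SE, edgeR adjusted p = 4.48e-06, range 1.93 to 3.01), and callosal cells by 1.78 ± 0.17 in log2 (SE, edgeR adjusted p = 1.73e-04, range 0.78 to 2.08).

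The T-type genes, for channels that open near rest, gave few UMIs. *Cacna1g* was highest among the compared classes in MGE interneuron-like and Cajal-Retzius-like cells, at 24.8 and 33.6 CPM and 22.3 and 38.2, against 6.53 and 7.81 in projection neuron-like cells. The former class gave 1.83 ± 0.26 in log2 (SE, edgeR adjusted p = 0.00131). The latter gave 1.73 ± 0.28 in log2 (SE, edgeR adjusted p = 0.00265). *Cacna1h* rose from 1.07 and 1.65 CPM in RGC-like to 16.6 and 15.01 in projection neuron-like cells (log2 fold change 3.49 ± 0.47 SE, edgeR adjusted p = 1.95e-04, range 2.25 to 3.60). *Cacna1i* gave 1 and 0 UMIs in RGC-like and 0 and 1 UMIs in IPC-like cells, too few for a fold change, and 86 and 99 UMIs in projection neuron-like cells, or 2.58 and 2.63 CPM. MGE interneuron-like cells held 12.4 and 9.98 CPM (log2 fold change 1.92 ± 0.51 SE, edgeR adjusted p = 0.0219, kept under 9 of 11 alternatives).

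The 3 alpha2delta genes, whose products bring calcium channels to the membrane and include the binding sites of gabapentin, differed among the classes. Among the compared classes, all 3 had their highest mean level in Cajal-Retzius-like cells. *Cacna2d1* (chr5:15934264-16374511) was at 148 and 106 CPM in RGC-like and 1190.3 and 1339 in IPC-like cells. The step between them was 3.37 ± 0.25 in log2 (SE, edgeR adjusted p = 1.32e-05, range 2.22 to 3.67). In projection neuron-like cells it was at 1076 and 1273 CPM, with a difference from IPC-like cells of 0.018 ± 0.23 in log2 (SE, edgeR adjusted p = 0.962). In MGE interneuron-like cells it was 44.5 and 59 CPM, a fold change of -4.66 ± 0.27 in log2 (SE, edgeR adjusted p = 1.05e-05, range -4.89 to -1.98) against projection neuron-like cells. Red blood cell-like cells held 48.1 and 1.92 CPM, so that in replicate 1 the interneuron level was no higher than this floor. Deep-layer cells held 474 and 667 CPM and newborn cells 1354 and 1698, which did not overlap (log2 fold change -1.36 ± 0.17 SE, edgeR adjusted p = 3.40e-04). Cajal-Retzius-like cells held 1491 and 2175 CPM, without a call against projection neuron-like cells (log2 fold change 0.34 ± 0.23 SE, edgeR adjusted p = 0.332). Among *Trp73* cells it was at 2008 and 2194 CPM, higher by 0.54 ± 0.18 in log2 (SE, edgeR adjusted p = 0.0487).

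*Cacna2d2* (chr9:107399733-107529346) was highest in Cajal-Retzius-like cells, followed by MGE interneuron-like cells. It stood at 327 and 576 CPM in Cajal-Retzius-like cells (395 and 543 UMIs), 46.8 and 37.2 in MGE interneuron-like and 1.08 and 2.15 in projection neuron-like cells. Cajal-Retzius-like cells exceeded projection neuron-like cells by 7.67 ± 0.37 in log2 (SE, edgeR adjusted p = 4.83e-06, range 7.47 to 8.45). MGE interneuron-like cells exceeded them by 4.44 ± 0.37 in log2 (SE, edgeR adjusted p = 6.51e-05, 5.07 without replicate 3 and 3.85 without replicate 1). Among *Trp73* cells the replicates came closer, at 558 and 578 CPM (log2 fold change 8.004 ± 0.24 SE, edgeR adjusted p = 2.37e-08). It was also above its neighbours in the lineage in IPC-like cells, at 6.60 and 6.72 CPM, higher than RGC-like cells by 3.11 ± 0.46 in log2 (SE, edgeR adjusted p = 7.69e-04, range 2.39 to 3.45). Projection neuron-like minus IPC-like cells gave -1.81 ± 0.37 in log2 (SE, edgeR adjusted p = 0.00403). *Cacna2d3* was at 64.7 and 84.7 CPM in projection neuron-like cells, 243 and 239 in MGE interneuron-like and 616 and 1267 in Cajal-Retzius-like cells. Against projection neuron-like cells the difference was 1.55 ± 0.41 in log2 (SE, edgeR adjusted p = 0.0212, range 1.32 to 2.24) for the interneurons. It was 3.35 ± 0.43 in log2 (SE, edgeR adjusted p = 9.21e-04) for Cajal-Retzius-like cells. From RGC-like to projection neuron-like cells it rose by 2.08 ± 0.42 in log2 (SE, edgeR adjusted p = 0.00212, range 1.46 to 2.47, 2.72 without replicate 3).

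As shares of the alpha2delta UMIs, *Cacna2d1* made up 99% (95% interval 98.6 to 99.2%) and 99% (98.7 to 99.1%) in IPC-like cells. It made up 94.2 and 93.6% in projection neuron-like, 61.3 and 54.1% in Cajal-Retzius-like cells and 13.3 and 17.6% in MGE interneuron-like cells. There *Cacna2d3* held 72.7% (95% interval 69 to 76.2%) and 71.3% (66.5 to 75.7%). This lead depended on the cells kept. *Cacna2d1* held the largest share in MGE interneuron-like cells with predicted doublets kept (mean 54.5%) and with no filter on cells (mean 50.8%). The replicates differed beyond their intervals in RGC-like cells, where *Cacna2d1* held 92.7% (95% interval 91.2 to 93.9%) and 78.8% (77.2 to 80.3%).

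The promoter windows of *Cacna2d1* (chr5:15934441-15934740 on the plus strand) and *Cacna2d2* (chr9:107399630-107399929 on the plus strand) are shown because these family members differed in opposite directions when MGE interneuron-like cells were set against projection neuron-like cells, with CG in capitals.
Cacna2d1: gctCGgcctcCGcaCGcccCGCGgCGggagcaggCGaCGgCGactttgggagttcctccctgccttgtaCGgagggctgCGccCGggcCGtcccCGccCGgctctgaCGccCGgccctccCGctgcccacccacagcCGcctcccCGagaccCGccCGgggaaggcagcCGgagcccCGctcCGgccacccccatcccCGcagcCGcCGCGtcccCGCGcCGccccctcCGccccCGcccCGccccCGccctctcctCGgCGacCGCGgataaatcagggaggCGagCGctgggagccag
Cacna2d2: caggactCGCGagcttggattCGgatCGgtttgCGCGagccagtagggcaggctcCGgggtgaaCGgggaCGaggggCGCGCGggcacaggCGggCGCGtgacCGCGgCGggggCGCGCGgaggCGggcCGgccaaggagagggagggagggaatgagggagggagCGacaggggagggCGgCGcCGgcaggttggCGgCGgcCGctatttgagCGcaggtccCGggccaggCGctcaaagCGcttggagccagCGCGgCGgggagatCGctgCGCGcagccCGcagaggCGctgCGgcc
They hold 42 and 43 CG, numbers reached by 3.03% and 2.61% of all windows. Both windows thus hold more CG than those of *Scn1a* and *Scn2a*, and nearly the same number as each other.

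The Cav beta subunits, cytoplasmic partners of the pore, differed between progenitors and neurons. *Cacnb2* was measured at 225 and 225 CPM in RGC-like, 80.6 and 78.9 in IPC-like and 50.1 and 39.9 in projection neuron-like cells, with no overlap between these class levels. Single projection neuron-like clusters exceeded the IPC-like level. Over the 9 clusters the mean of *Cacnb2* ran from 24.9 CPM to 126 CPM, the latter in the cluster led by *Tafa1*. A deep-layer cluster led by *Hs3st4* held a mean of 104 CPM. The fold change against RGC-like cells was -1.44 ± 0.25 in log2 (SE, edgeR adjusted p = 0.00208) for IPC-like cells. For projection neuron-like cells it was -2.13 ± 0.25 in log2 (SE, edgeR adjusted p = 8.37e-05). Between the latter classes it was -0.69 ± 0.25 in log2 (SE, edgeR adjusted p = 0.0512, with a replicate block -0.71 and 0.0228). *Cacnb3* and *Cacnb4* rose instead. *Cacnb3* went from 8.21 and 11.7 CPM to 56.4 and 59.8 (log2 fold change 2.68 ± 0.17 SE, edgeR adjusted p = 1.87e-06, range 2.07 to 2.72). *Cacnb4* went from 35.9 and 37.1 CPM to 130.1 and 108 (log2 fold change 1.89 ± 0.29 SE, edgeR adjusted p = 4.34e-04). *Cacnb4* was highest in MGE interneuron-like cells, at 584 and 609 CPM, above projection neuron-like cells by 2.18 ± 0.29 in log2 (SE, edgeR adjusted p = 8.88e-04). *Cacnb1* was low, at 12.3 and 12.6 CPM in projection neuron-like cells (log2 fold change 2.41 ± 0.30 SE against RGC-like cells, edgeR adjusted p = 1.24e-04).

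As shares of the beta gene UMIs, *Cacnb2* led in both progenitor classes and *Cacnb4* in projection neuron-like and MGE interneuron-like cells, with no test. In Cajal-Retzius-like cells they were close, at 38.5 and 35.1% and 41.2 and 32.4%. *Cacnb2* held 82.7% (95% interval 81.2 to 84.1%) and 81.6% (80.5 to 82.6%) in RGC-like cells. Its share was 63.8 and 62.6% in IPC-like, 20.1 and 18.1% in projection neuron-like and 11.8 and 12.7% in MGE interneuron-like cells. *Cacnb4* held 13.2 and 13.4% in RGC-like cells, 52.3 and 49% in projection neuron-like cells and 81.5% (95% interval 79.2 to 83.5%) and 80% (77.2 to 82.6%) in MGE interneuron-like cells.

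**Figure D4:**
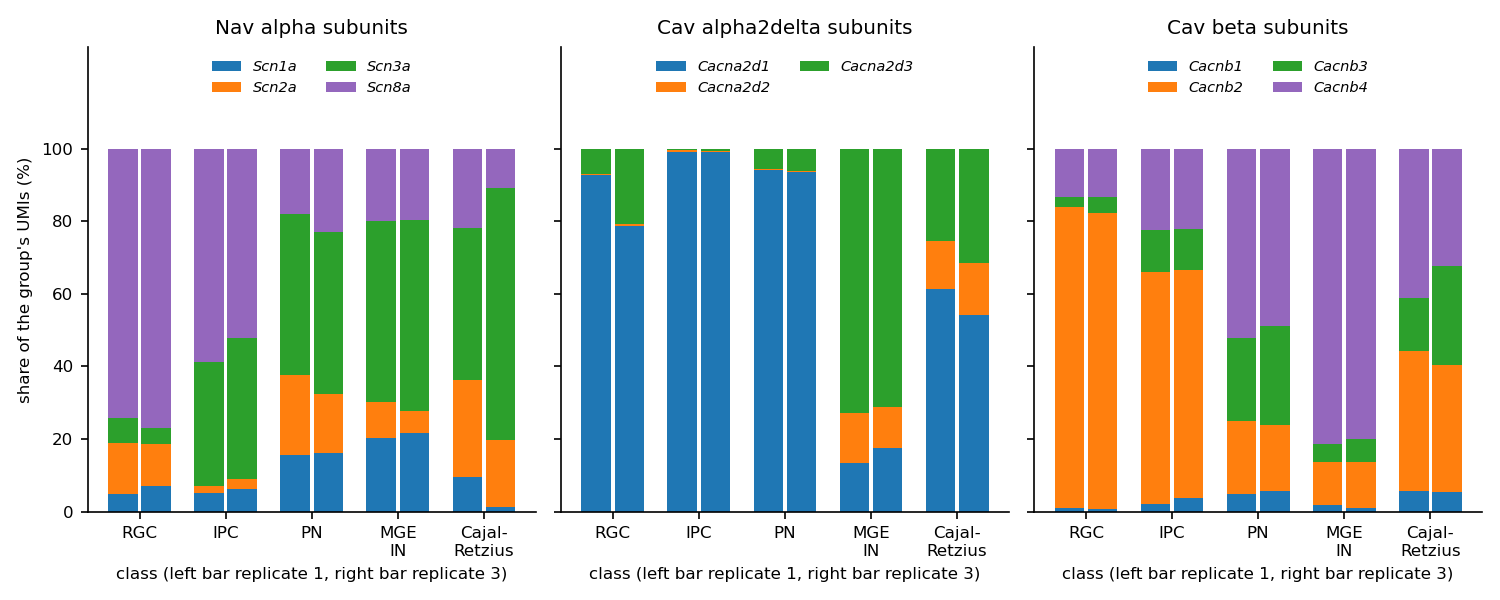
Share (%) of each gene in the UMIs of its subunit group, stacked to 100% per class, with the left bar for replicate 1 and the right bar for replicate 3. *Scn8a* and *Cacnb2* take most of their groups in RGC-like cells, *Cacna2d1* takes nearly all of its group in IPC-like cells, and *Cacna2d3* and *Cacnb4* take most of theirs in MGE interneuron-like cells.

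Of the delayed rectifier and fast potassium channel genes, *Kcnb2*, a Kv2 subunit, was already high in IPC-like cells. Its level was 23.9 and 17.7 CPM in RGC-like, 570.3 and 544 in IPC-like and 572 and 567 in projection neuron-like cells. The first step was 4.80 ± 0.18 in log2 (SE, edgeR adjusted p = 8.73e-07, range 2.32 to 5.07). The second, 0.16 ± 0.16 in log2 (SE, edgeR adjusted p = 0.452), was not called. Newborn cells held 768 and 735 CPM, above deep-layer cells at 403 and 379 (deep-layer minus newborn log2 fold change -0.88 ± 0.10 SE, edgeR adjusted p = 2.18e-04). Cajal-Retzius-like cells held the most, 1148 and 1082 CPM (log2 fold change 0.67 ± 0.16 SE, edgeR adjusted p = 0.0164, kept under 10 of 12 alternatives).

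The Kv3 genes, for channels that let neurons fire fast, differed in opposite directions between deep-layer and newborn cells. *Kcnc2* was at 151 and 111 CPM in newborn, 28.3 and 35.5 in callosal and 2.53 and 2.96 in deep-layer cells. Deep-layer minus newborn cells gave -5.39 ± 0.21 in log2 (SE, edgeR adjusted p = 7.13e-07, range -6.45 to -2.62). In MGE interneuron-like cells it reached 614 and 452 CPM, above projection neuron-like cells by 3.38 ± 0.39 in log2 (SE, edgeR adjusted p = 4.10e-04). Against RGC-like cells, at 7.15 and 2.40 CPM, IPC-like cells were higher by 3.04 ± 0.43 in log2 (SE, edgeR adjusted p = 6.22e-04, range 1.66 to 3.78, 3.67 without replicate 1). For projection neuron-like cells the same comparison gave 3.54 ± 0.43 in log2 (SE, edgeR adjusted p = 9.16e-05, range 2.24 to 3.59, 2.91 without replicate 3 and 4.33 without replicate 1). In Cajal-Retzius-like cells it stood at 159 and 101 CPM (log2 fold change 1.19 ± 0.38 SE, edgeR adjusted p = 0.0565, with a replicate block 1.14 and 0.0101). *Kcnc1* rose from 1.92 and 1.05 CPM in RGC-like to 8.42 and 5.74 in IPC-like and 19.6 and 16.9 in projection neuron-like cells (log2 fold change 3.76 ± 0.27 SE against RGC-like cells, edgeR adjusted p = 3.07e-06, range 2.20 to 3.85). It was higher in deep-layer than in newborn cells by 1.36 ± 0.13 in log2 (SE, edgeR adjusted p = 6.46e-05), and in callosal cells by 1.37 ± 0.14 in log2 (SE, edgeR adjusted p = 2.93e-04, range 0.75 to 1.38).

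The Kv1 genes, of axonal channels, were scarce at this age. *Kcna1* gave 1 and 5 UMIs in RGC-like cells, 0 and 0 UMIs in IPC-like cells and 2 and 0 UMIs in MGE interneuron-like cells. Projection neuron-like cells gave 281 and 320 UMIs, or 8.42 and 8.50 CPM, above RGC-like cells by 4.68 ± 0.41 in log2 (SE, edgeR adjusted p = 2.29e-05, range 2.84 to 5.49). The calls against IPC-like (edgeR adjusted p = 9.97e-05) and MGE interneuron-like cells (edgeR adjusted p = 0.0057) carry no fold change, since these classes held 3 UMIs or fewer. *Kcna2* was at 3.41 and 2.05 CPM in projection neuron-like cells and 1.17 and 0.699 in RGC-like cells (log2 fold change 1.62 ± 0.51 SE, edgeR adjusted p = 0.0224, kept under 10 of 11 alternatives).

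The Kv4 genes, of the A-type current, showed smaller differences along the lineage. *Kcnd2* stood at 262 and 276 CPM in RGC-like, 53 and 108 in IPC-like and 255 and 272 in projection neuron-like cells. No difference between the first and the last was called (log2 fold change 0.16 ± 0.53 SE, edgeR adjusted p = 0.822). IPC-like cells were lower than RGC-like cells, at -1.66 ± 0.55 in log2 (SE, edgeR adjusted p = 0.0425, kept under 9 of 10 alternatives). Projection neuron-like cells exceeded IPC-like cells by 1.82 ± 0.55 in log2 (SE, edgeR adjusted p = 0.027, 2.41 without replicate 3). *Kcnd3* was highest in MGE interneuron-like cells, at 186 and 200.4 CPM, against 72.4 and 76.8 in projection neuron-like cells (log2 fold change 1.23 ± 0.30 SE, edgeR adjusted p = 0.0142). Projection neuron-like against RGC-like cells gave 0.85 ± 0.29 in log2 (SE, edgeR adjusted p = 0.0293, kept under 9 of 11 alternatives, 1.51 without replicate 1). Against IPC-like cells its fold change was 0.81 ± 0.29 in log2 (SE, edgeR adjusted p = 0.0538, with a replicate block 0.79 and 0.0471). Newborn cells, at 111 and 112 CPM, lay above deep-layer cells, at 39.7 and 40.1 (deep-layer minus newborn log2 fold change -1.42 ± 0.089 SE, edgeR adjusted p = 6.29e-06, range -1.50 to -0.25, kept under 10 of 11 alternatives).

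The Kv7 genes, which carry the M-current that limits repeated firing, were higher in projection neuron-like than in MGE interneuron-like cells. *Kcnq3* was at 20.7 and 9.93 CPM in RGC-like and 27.8 and 22.1 in IPC-like cells. Projection neuron-like cells held 1304 and 999 CPM, above RGC-like cells by 6.44 ± 0.69 in log2 (SE, edgeR adjusted p = 4.38e-05, range 3.05 to 6.48). Newborn cells held 691 and 359 CPM and deep-layer cells 1621 and 1409.9 (log2 fold change 1.59 ± 0.29 SE, edgeR adjusted p = 0.00251, range 0.42 to 1.62, kept under 10 of 11 alternatives). MGE interneuron-like cells held 135 and 171 CPM, with a fold change against projection neuron-like cells of -3.06 ± 0.60 in log2 (SE, edgeR adjusted p = 0.0054, range -3.29 to -2.15). In Cajal-Retzius-like cells it was 289 and 59.4 CPM, with a fold change of -3.001 ± 0.60 in log2 (SE, edgeR adjusted p = 0.00765, range -4.92 to -2.70, -4.39 without replicate 1). Among *Trp73* cells, at 90.2 and 59.2 CPM, the fold change was -4.27 ± 0.34 in log2 (SE, edgeR adjusted p = 9.99e-06). *Kcnq5* rose from 90.9 and 82.6 CPM in RGC-like to 395 and 239 in projection neuron-like cells (log2 fold change 2.06 ± 0.41 SE, edgeR adjusted p = 0.00212). It was 44 and 35.4 CPM in MGE interneuron-like cells (log2 fold change -3.12 ± 0.47 SE against projection neuron-like cells, edgeR adjusted p = 0.00165, range -3.34 to -2.27). Callosal cells, at 862 and 512 CPM, stood above newborn cells, at 105 and 161, by 2.41 ± 0.39 in log2 (SE, edgeR adjusted p = 0.00266, range 0.41 to 2.56, kept under 9 of 11 alternatives, 3.07 without replicate 3 and 1.67 without replicate 1). For deep-layer cells, at 543 and 268 CPM, the fold change was 1.67 ± 0.38 in log2 (SE, edgeR adjusted p = 0.00688, range 0.66 to 1.80, kept under 10 of 11 alternatives, 2.44 without replicate 3 and 0.76 without replicate 1). A deep-layer cluster led by *Hs3st4* held a mean of 157 CPM, below the 207 CPM of a newborn cluster led by *Cdh8*.

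The Kv10 and Kv11 genes, of the ether-a-go-go family, each had another pattern. *Kcnh7* was well measured in every class, at 528 and 443 CPM in RGC-like, 457 and 438 in IPC-like, 712 and 819.8 in projection neuron-like and 1814 and 1622 in Cajal-Retzius-like cells. There it exceeded projection neuron-like cells by 0.87 ± 0.19 in log2 (SE, edgeR adjusted p = 0.0118). Projection neuron-like cells exceeded RGC-like cells by 0.85 ± 0.19 in log2 (SE, edgeR adjusted p = 0.0038). Deep-layer and newborn cells differed by 0.27 ± 0.13 in log2 (SE, edgeR adjusted p = 0.13, with a replicate block 0.27 and 0.0405). *Kcnh5* stood at 92.7 and 66.4 CPM in IPC-like and 63.6 and 61.1 in projection neuron-like cells. It was lower, at 2.25 and 3.63 CPM, in MGE interneuron-like cells (log2 fold change -4.54 ± 0.95 SE against projection neuron-like cells, edgeR adjusted p = 0.0077, range -4.75 to -1.52). Its difference between projection neuron-like and RGC-like cells was 1.31 ± 0.51 in log2 (SE, edgeR adjusted p = 0.0506, with a replicate block 1.39 and 0.00709). In Cajal-Retzius-like cells it gave 44 and 0 UMIs (log2 fold change -1.94 ± 0.69 SE, edgeR adjusted p = 0.0801, with a replicate block -2.03 and 0.0275), and none of these UMIs lay in *Trp73* cells. The call of *Kcnh5* as lower among *Trp73* cells (edgeR adjusted p = 3.81e-04) carries no fold change, since they held none of its UMIs. *Kcnh1* gave 0 and 0 UMIs in MGE interneuron-like cells and stood at 3.71 and 1.89 CPM in projection neuron-like cells (edgeR adjusted p = 0.0451, kept under 7 of 11 alternatives). It measured 28.9 and 11.7 CPM in Cajal-Retzius-like cells (log2 fold change 2.53 ± 0.49 SE, edgeR adjusted p = 0.00873, range 1.85 to 2.83).

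*Hcn2*, the single HCN gene of the set, gave 44 and 34 UMIs in projection neuron-like cells and 11 and 13 UMIs in RGC-like cells, and no difference was called (log2 fold change 0.47 ± 0.35 SE, edgeR adjusted p = 0.277). Cajal-Retzius-like cells held 7.44 and 6.37 CPM from 9 and 6 UMIs (log2 fold change 2.19 ± 0.46 SE, edgeR adjusted p = 0.00961).

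**Figure D5:**
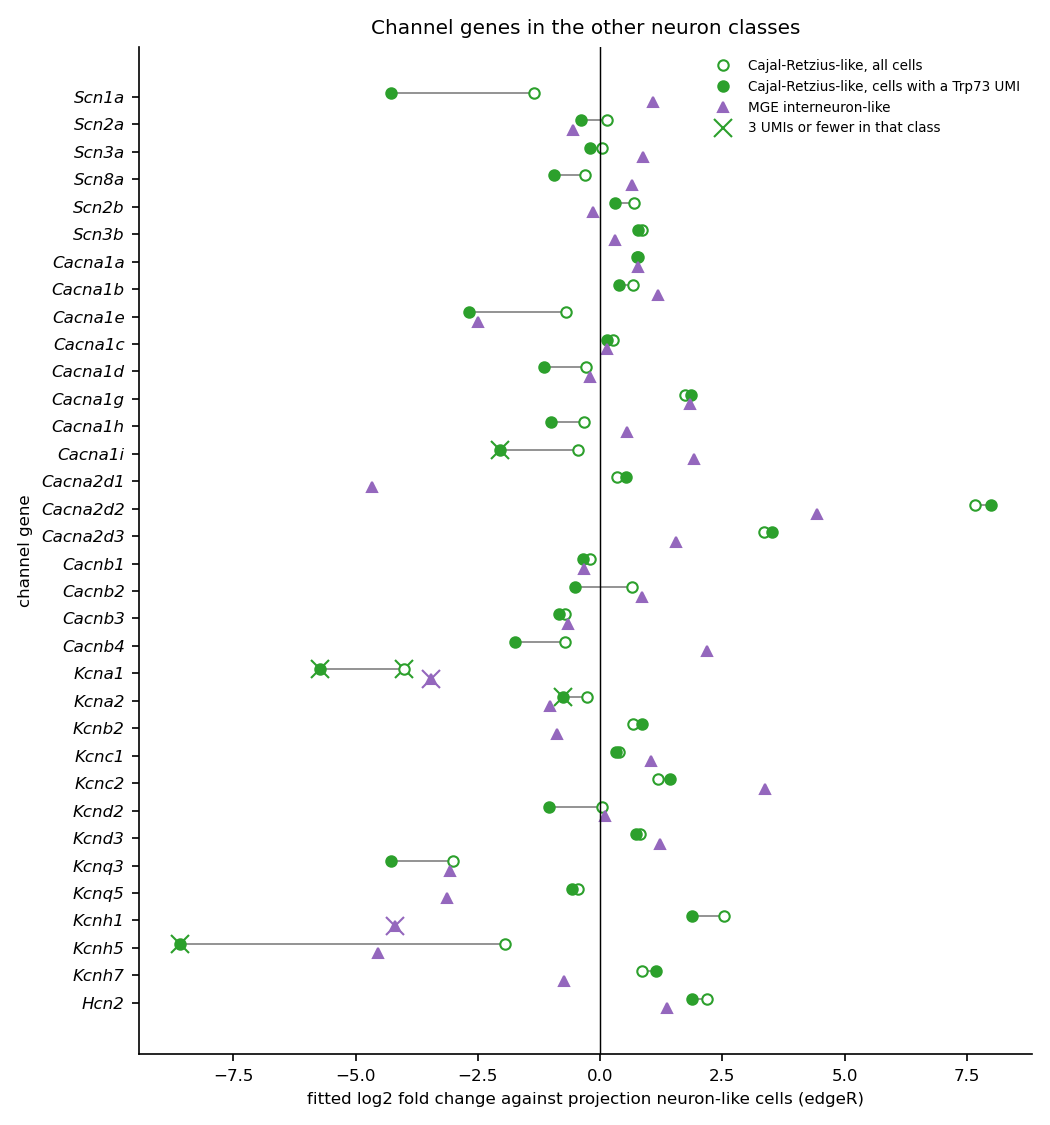
Fitted log2 fold change against projection neuron-like cells for MGE interneuron-like cells (triangles) and Cajal-Retzius-like cells, the latter with all cells (open circles) and with cells holding a *Trp73* UMI (filled circles, joined by a line), with crosses where that class held 3 UMIs or fewer. *Cacna2d2* lies far to the right in both classes, *Cacna2d1* far to the left in MGE interneuron-like cells alone, and *Scn1a*, *Cacna1e* and *Kcnq3* shift left when the *Trp73* cells are taken.

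At the level of single cells, thinned to 3000 UMIs each, *Scn3a* was seen in 56.8% (50.8 to 62.6%) and 59.9% (52.1 to 67.2%) of MGE interneuron-like cells and 36.4% (34.6 to 38.2%) and 30.5% (28.9 to 32%) of projection neuron-like cells. It was seen in 7.43 and 7.05% of IPC-like and 0.761 and 0.132% of RGC-like cells. The share in red blood cell-like cells, whose median depth was 5304 and 4425 UMIs, was 2.13 and 0%, and that in endothelial-like cells 0 and 0%. Unthinned, MGE interneuron-like cells gave 67.7 and 67% and projection neuron-like cells 72 and 61.4%, so that the order turned in replicate 1 but not in replicate 3. *Cacna2d1* was seen in 81.8% (80.3 to 83.2%) and 86.6% (85.4 to 87.7%) of projection neuron-like cells and 75.1 and 71.6% of IPC-like cells. In MGE interneuron-like cells the share was 3.01% (1.53 to 5.82%) and 5.10% (2.60 to 9.73%), beside 5.56 and 8.33% in endothelial-like cells. Unthinned, these shares were 93.8 and 96%, 86.2 and 82%, 4.49 and 5.05% and 5.56 and 23.1%. Red blood cell-like cells gave 2.13% (0.377 to 11.1%) and 0% (0 to 6.02%), unthinned 3.57 and 1.06%. The MGE interneuron-like share lay below the endothelial-like and above the red blood cell-like share after thinning, with overlapping intervals in each replicate. *Kcnq3* was seen in 80.8% (79.3 to 82.2%) and 70% (68.4 to 71.5%) of projection neuron-like and 19.2 and 19.7% of MGE interneuron-like cells (unthinned 90.7 and 81.3% and 24.3 and 27.5%). *Cacna2d2* was seen in 40.6% (31.5 to 50.3%) and 80.3% (69.2 to 88.1%) of Cajal-Retzius-like cells and 13.2 and 9.55% of MGE interneuron-like cells, against 0.393 and 0.546% of projection neuron-like cells (unthinned 51.4 and 94.3%, 16.2 and 12.8% and 1.01 and 1.85%). The shares of *Scn2a* were 17.9 and 10.6% in projection neuron-like and 15.8 and 8.28% in MGE interneuron-like cells, with overlapping intervals in each replicate. Thinning left out 68 and 61 MGE interneuron-like and 75 and 158 projection neuron-like cells.

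Channel genes outside the 34 are given by their counts, to be read against the shares of all genes tested. The lists were drawn up by symbol. That of calcium channel genes holds mostly *Cacng* genes, and not all of their products are calcium channel subunits. Its counts are therefore counts of symbols and not of channel subunits. Of other potassium and HCN channel genes, projection neuron-like cells against RGC-like cells had 16 higher and 1 lower of 21 tested, beside 30.5% higher and 27.4% lower of all genes. *Kcnma1*, for the large-conductance calcium-activated channel, was higher by 5.75 ± 0.39 SE in log2 (edgeR adjusted p = 2.25e-06). Partner and anchoring genes had 10 higher and 2 lower of 18 tested. *Ank3*, for the ankyrin that gathers sodium and Kv7 channels at the axon initial segment, was higher by 5.45 ± 0.20 SE in log2 (edgeR adjusted p = 1.31e-07). Inward rectifier and leak channel genes had 7 higher and 3 lower of 16 tested. The glial channel gene *Kcnj10* was lower, at -5.87 ± 0.33 SE in log2 (edgeR adjusted p = 7.65e-07). *Kcnj3* was higher by 5.37 ± 0.17 SE in log2 (edgeR adjusted p = 1.12e-07). The counts were 2 higher and 3 lower of 5 tested for other sodium and 2 higher and 1 lower of 7 tested for other calcium channel genes.

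In the other comparisons, each count is given as higher and lower of those tested. In MGE interneuron-like against projection neuron-like cells, 6 higher and 4 lower of 21 potassium and HCN channel genes, 5 higher and 3 lower of 18 partner genes and 3 higher and 4 lower of 16 inward rectifier and leak channel genes were called. For sodium and calcium channel genes the calls were 0 higher and 0 lower of 5 and 3 higher and 0 lower of 7. The background was 11.1% higher and 18.1% lower of all genes. In the sodium list 0 were at an unadjusted p under 0.05 in edgeR and 0 were called by DESeq2. *Dpp10*, a Kv4 partner, was higher by 5.23 ± 0.25 SE in log2 (edgeR adjusted p = 4.04e-06). *Cacng3*, placed in the calcium list by its symbol, was higher by 7.10 ± 0.50 SE in log2 (edgeR adjusted p = 2.69e-05). *Kcnj3* was lower, at -4.10 ± 0.20 SE in log2 (edgeR adjusted p = 4.04e-06).

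In Cajal-Retzius-like against projection neuron-like cells, 4 higher and 3 lower of 21 potassium and HCN channel genes, 5 higher and 2 lower of 18 partner genes and 5 higher and 3 lower of 16 inward rectifier and leak channel genes were called. For sodium and calcium channel genes the calls were 4 higher and 0 lower of 5 and 3 higher and 0 lower of 7. The background was 10.1% higher and 10.4% lower of all genes. The sodium leak channel gene *Nalcn* was higher by 3.06 ± 0.26 SE in log2 (edgeR adjusted p = 1.12e-04). From RGC-like to IPC-like cells, 4 higher and 2 lower of 21 potassium and HCN channel genes, 2 higher and 4 lower of 18 partner genes and 4 higher and 4 lower of 16 inward rectifier and leak channel genes were called. For sodium and calcium channel genes the calls were 0 higher and 2 lower of 5 and 1 higher and 1 lower of 7. The background was 15.9% higher and 19% lower of all genes. *Kcnj3*, for a G protein-gated potassium channel, was higher by 4.04 ± 0.17 SE in log2 (edgeR adjusted p = 9.14e-07). From IPC-like to projection neuron-like cells, 16 higher and 0 lower of 21 potassium and HCN channel genes, 12 higher and 2 lower of 18 partner genes and 6 higher and 3 lower of 16 inward rectifier and leak channel genes were called. For sodium and calcium channel genes the calls were 3 higher and 1 lower of 5 and 3 higher and 1 lower of 7. The background was 21.9% higher and 18.1% lower of all genes.

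In deep-layer against newborn cells, 13 higher and 2 lower of 20 potassium and HCN channel genes, 12 higher and 1 lower of 18 partner genes and 4 higher and 1 lower of 10 inward rectifier and leak channel genes were called. For sodium and calcium channel genes the calls were 3 higher and 0 lower of 3 and 4 higher and 0 lower of 5. The background was 23.8% higher and 21.1% lower of all genes. In callosal against newborn cells, 9 higher and 0 lower of 20 potassium and HCN channel genes, 7 higher and 2 lower of 18 partner genes and 6 higher and 0 lower of 10 inward rectifier and leak channel genes were called. For sodium and calcium channel genes the calls were 1 higher and 0 lower of 3 and 3 higher and 0 lower of 5. The background was 13.1% higher and 10.7% lower of all genes. *Kcnma1* was higher in callosal cells by 3.62 ± 0.18 SE in log2 (edgeR adjusted p = 1.10e-05).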

How the data were processed

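UMI counts per gene and barcode had been made by the authors and were used as deposited, with Cell Ranger 7.0.0 and build mm10 named in the submitters' processing notes. The intron setting was not given in the sources used here. Kept barcodes held 1500 to 60000 UMIs, less than 10% of them mitochondrial (710 and 1387 removed of 6163 and 8870), and predicted doublets were removed (304 and 629, Scrublet-like scoring, 0.8% per 1000 barcodes). The matrices held 64182006 and 93295807 UMIs.

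Counts scaled to 10000 per cell gave 2000 variable genes without channel genes (scanpy 1.11.5), 30 components, 15 neighbours and Leiden clusters at resolution 1.0 (igraph 0.11.9, seed 1), which were named with at least 3 markers on. UMIs were summed per class and replicate and tested with edgeR 4.0.16 (quasi-likelihood, TMM, filterByExpr, R 4.3.3) in 1 fit of 5 classes and 1 of 3 subtypes, each class with at least 20 cells per replicate. All 34 genes passed the low-count filter. Shares have 95% Wilson intervals. Thinning drew UMIs without replacement.

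The replicate number pairs the sums, since those of 1 number come from 1 library. Deviations of paired sums correlated at 0.0132 to 0.277 across genes, which are not independent replicates. The design without the block was used. The fit was tested on simulated data first.

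The members and lists were chosen with earlier results of these data known. All 34 genes were named, and of each other list the genes with the largest fold change, at most 3 per comparison. An item of these lists is not reported here. Alternatives were DESeq2 1.42.0, no TMM factors, no low-count filter, the replicate block, either replicate left out, other cell filters, doublets kept, other resolutions and channel genes among the variable genes, and, chosen after seeing the data, *Trp73* cells and the projection neuron-like clusters without the one of fewest UMIs. Promoter windows and positions were RefSeq's for GRCm38.p6.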

Additional observations from a re-analysis of the deposited data

Results flagged for a closer look

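In all, 7 values lay in cell classes that entered no comparison, yet exceeded the gene's level in the compared class where it was highest. Each is a level with no test, and the classes are small.

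In pericyte-like cells (39 and 44 cells in replicates 1 and 3), the contractile cells along vessels, *Cacnb2* stood at 548 and 383 CPM in replicates 1 and 3 (mean 465, from 277 and 233 UMIs), against a mean of 225 CPM in RGC-like cells. *Scn2b* stood there at 19.8 and 16.4 CPM in replicates 1 and 3 (mean 18.1, from 10 and 10 UMIs), against a mean of 4.78 CPM in Cajal-Retzius-like cells. In meningeal-like cells (43 and 127 cells), *Cacna1g* was measured at 64 and 52.7 CPM in replicates 1 and 3 (mean 58.3, from 44 and 87 UMIs), against a mean of 30.3 CPM in Cajal-Retzius-like cells.

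In cells of the cortical hem and choroid plexus (16 and 121 cells), *Cacna2d3* stood at 1386 and 651 CPM in replicates 1 and 3 (mean 1018, from 245 and 1098 UMIs), against a mean of 942 CPM in Cajal-Retzius-like cells. In a GABAergic cluster on which most LGE neuron markers were on but which was led by *Adarb2*, a CGE interneuron marker (383 and 27 cells, most of them from replicate 1), *Cacna2d3* gave 443 and 1585 CPM in replicates 1 and 3 (mean 1014, from 1003 and 206 UMIs), against a mean of 942 CPM in Cajal-Retzius-like cells. *Cacna1c* gave 625 and 600.3 CPM in replicates 1 and 3 (mean 612, from 1413 and 78 UMIs), against a mean of 509 CPM in Cajal-Retzius-like cells. *Kcnd2* gave 869 and 354 CPM in replicates 1 and 3 (mean 612, from 1967 and 46 UMIs), against a mean of 327 CPM in Cajal-Retzius-like cells. The replicates differed by more than 1.5-fold for *Cacna2d3* and *Kcnd2* in these classes.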

How the results depend on the processing

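Over 3092 repeats of single gene results under the alternatives, 2745 kept their direction and their side of the threshold, 133 gained a call, 115 lost it, 42 took the opposite sign with a call in 1 of the 2 fits, and 57 values from 1 replicate moved beyond the spread. A further 87 changes of sign, with no call in either fit, are counted as kept. The replicate block lost no call and gained 12, each given in the report. Leaving out the projection neuron-like cluster of fewest UMIs changed no call. With 2 replicates, 1 left out allows no test. Depth limits *Scn2b*, *Kcna1*, *Kcna2*, *Cacna1i*, *Kcnh1* and *Hcn2*, which gave few UMIs in most classes. The cause of the values below was not tested, and class names there stand without "-like". Most counts of genes called there stand without the share of all genes under the same setting. A change in them can therefore not be read as particular to the channel genes. For IPC over RGC, calls over all genes went from 5298 to 6134 under the stricter filter, and those of channel genes from 17 to 21.

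With predicted doublets kept, the genes called numbered 12 lower for IPC over RGC, 3 lower for projection neuron over IPC and 9 lower for Cajal-Retzius over projection neuron. *Scn3a* took 28.4% in RGC, 48.8% in IPC and 43.9% in projection neuron of its subunit group. *Cacna2d1* took 99.3% in IPC, 93.3% in projection neuron and 54.5% in MGE interneuron of its subunit group. *Cacnb2* took 74.4% in RGC, 50.4% in IPC, 13.2% in MGE interneuron and 32.4% in Cajal-Retzius of its subunit group. The sign turned for IPC over RGC *Scn3b* (-1.34, reported 0.54), *Cacna1b* (-0.75, reported 1.68), *Cacna1e* (-2.94, reported 0.091) and *Kcnq3* (-0.86, reported 0.78), for projection neuron over IPC *Kcnc2* (-1.004, reported 0.49) and for callosal over newborn *Cacna1g* (0.095, reported -2.21). With the stricter cell filter (at least 3000 UMIs, under 5% mitochondrial), the genes called numbered 3 lower for projection neuron over IPC and 11 lower for Cajal-Retzius over projection neuron. *Scn3a* took 44.3% in IPC and 44.9% in projection neuron of its subunit group. *Cacna2d1* took 99.1% in IPC of its subunit group. *Cacnb2* took 60.7% in IPC, 13.6% in MGE interneuron and 21.3% in Cajal-Retzius of its subunit group. The fold change took the opposite sign for Cajal-Retzius over projection neuron *Cacnb2* (-0.87, reported 0.65) and *Kcnd2* (-1.30, reported 0.031) and for callosal over newborn *Cacna1e* (-0.77, reported 1.32) and *Cacnb2* (0.80, reported -0.036). With no filter on cells, the genes called numbered 2 lower for projection neuron over IPC and 9 lower for Cajal-Retzius over projection neuron. *Scn3a* took 28.5% in RGC, 41.6% in IPC and 43.9% in projection neuron of its subunit group. *Cacna2d1* took 96.1% in IPC and 50.8% in MGE interneuron of its subunit group. *Cacnb2* took 75.1% in RGC, 13.9% in MGE interneuron and 31.5% in Cajal-Retzius of its subunit group. The sign turned for IPC over RGC *Cacna1b* (-0.52, reported 1.68), *Cacna1e* (-1.99, reported 0.091), *Cacna2d3* (0.64, reported -1.47) and *Kcnq3* (-1.31, reported 0.78) and for callosal over newborn *Cacna1g* (0.83, reported -2.21) and *Cacnb2* (0.77, reported -0.036). At Leiden resolution 0.6, the genes called numbered 2 lower for projection neuron over IPC. *Cacna2d1* took 99% in IPC of its subunit group. *Cacnb2* took 65.8% in IPC of its subunit group. The fold change took the opposite sign for callosal over newborn *Cacna1g* (0.20, reported -2.21). At Leiden resolution 1.5, the genes called numbered 2 lower for IPC over RGC, 5 lower for deep-layer over newborn and 3 lower for callosal over newborn. *Scn3a* took 46.3% in IPC and 44.1% in projection neuron of its subunit group. *Cacna2d1* took 96.5% in IPC of its subunit group. *Cacnb2* took 54.4% in IPC and 19.4% in MGE interneuron of its subunit group. The sign turned for IPC over RGC *Cacna1c* (0.25, reported -1.27) and *Cacna2d3* (1.21, reported -1.47), for deep-layer over newborn *Kcnd2* (0.085, reported -0.68) and *Kcnh5* (0.72, reported -1.08) and for callosal over newborn *Scn1a* (1.39, reported -0.18), *Cacna1e* (-0.85, reported 1.32), *Cacna2d3* (-0.85, reported 0.11), *Cacnb2* (1.07, reported -0.036), *Cacnb3* (-0.036, reported 0.48), *Kcnd2* (0.76, reported -0.22) and *Kcnh5* (0.44, reported -1.09). With channel genes among the variable genes, the genes called numbered 21 higher for IPC over RGC, 3 lower for IPC over RGC, 10 lower for Cajal-Retzius over projection neuron, 4 lower for deep-layer over newborn, 8 higher for callosal over newborn and 1 lower for callosal over newborn. *Scn3a* took 44.6% in IPC and 44.2% in projection neuron of its subunit group. *Cacna2d1* took 95.1% in IPC and 94.4% in projection neuron of its subunit group. *Cacnb2* took 58.3% in IPC and 28.3% in Cajal-Retzius of its subunit group. The fold change took the opposite sign for IPC over RGC *Cacna1c* (0.52, reported -1.27), *Cacna1g* (0.76, reported -2.20) and *Cacna2d3* (2.20, reported -1.47), for Cajal-Retzius over projection neuron *Kcnd2* (-1.36, reported 0.031), for deep-layer over newborn *Cacna2d2* (1.86, reported -0.63), *Kcna1* (-0.36, reported 2.33), *Kcnd2* (0.071, reported -0.68) and *Kcnh5* (1.05, reported -1.08) and for callosal over newborn *Scn1a* (0.78, reported -0.18), *Cacna2d2* (0.38, reported -2.59), *Cacna2d3* (-0.67, reported 0.11), *Cacnb3* (-0.12, reported 0.48) and *Kcnh5* (0.76, reported -1.09). With DESeq2, the genes called numbered 2 lower for projection neuron over IPC. Without TMM factors, the genes called numbered 2 lower for projection neuron over IPC. Without the low-count filter, the genes called numbered 2 lower for projection neuron over IPC and 8 lower for Cajal-Retzius over projection neuron. With the replicate block, the genes called numbered 2 lower for projection neuron over IPC. With *Trp73* cells alone, the genes called numbered 10 lower for Cajal-Retzius over projection neuron. *Cacnb2* took 27.2% in Cajal-Retzius of its subunit group. The sign turned for Cajal-Retzius over projection neuron *Kcnd2* (-1.04, reported 0.031). For detection, thinned to 1500 UMIs, *Scn2a* was seen in 8.69% of projection neurons and 5.21% of MGE interneurons. *Scn3a* was seen in 19.4% of projection neurons and 31.5% of MGE interneurons. *Cacna2d1* was seen in 70.5% of projection neurons and 2.04% of MGE interneurons. *Cacna2d2* was seen in 0.249% of projection neurons and 3.39% of MGE interneurons. *Kcnq3* was seen in 62.3% of projection neurons and 13.3% of MGE interneurons. For detection, without thinning, *Scn2a* was seen in 33% of projection neurons. *Scn3a* was seen in 66.7% of projection neurons and 67.3% of MGE interneurons. *Cacna2d1* was seen in 94.9% of projection neurons. *Cacna2d2* was seen in 1.43% of projection neurons and 14.5% of MGE interneurons. *Kcnq3* was seen in 86% of projection neurons and 25.9% of MGE interneurons.

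Of 157 called results, 19 moved by more than 1.5-fold with 1 replicate alone. Beside those in the report, and *Kcna1*, which had 3 UMIs or fewer in a class, these were *Cacna2d3* for IPC over RGC (-0.84 without replicate 3, both -1.47), *Scn2a* for projection neuron over IPC (5.63 without replicate 3, both 5.03), *Scn2b* for projection neuron over IPC (1.16 without replicate 3 and 2.79 without replicate 1, both 1.91), *Cacna1g* for deep-layer over newborn (2.63 without replicate 3, both 1.91), *Cacna2d3* for deep-layer over newborn (2.55 without replicate 3, both 1.91), *Cacna1i* for deep-layer over newborn (3.84 without replicate 3, both 3.22), *Cacna1g* for callosal over newborn (-1.09 without replicate 3 and -4.34 without replicate 1, both -2.21) and *Kcnq3* for callosal over newborn (0.88 without replicate 3 and 2.32 without replicate 1, both 1.56).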
